A study of Rattus norvegicus with 15 samples.

Results

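Hepatic stellate cell and extracellular matrix genes were examined in livers of rats fed a high fat diet and dosed with PF-04923503. This compound inhibits acetyl-CoA carboxylase, whose product malonyl-CoA feeds the synthesis of fatty acids. The genes were a list of 38: 5 chains of the fibrillar collagens, 10 basement membrane genes, 8 other interstitial matrix genes, 4 matricellular genes, 5 genes of matrix turnover and 6 genes of the cytoskeleton and signalling of stellate cells and myofibroblasts. A gene was found by its symbol, current or former, in the platform annotation, and its brightest probe set stood for it. All 38 genes had a probe set, of 14217 genes that carried 1 symbol on the array, and together they had 63 of its 31099 probe sets. Ctgf was found under its current symbol, Ccn2.

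There were 15 liver samples, 1 array each, in 3 groups of 5, taken from the sample titles. All rats were male Sprague Dawley, 7 weeks old when treatment began, were kept on feed in which fat supplied 59% of the calories, and were dosed daily by gavage for 6 weeks. The vehicle group received 0.5% methylcellulose, and the other groups received PF-04923503 at 10 mg/kg or at 30 mg/kg. There was no group on a standard diet, so the values compare dosed with undosed livers under the same fat load. The titles number the samples without stating separate animals, and a p-value here reflects only how far these samples spread.

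Stellate cells lie between the hepatocytes and the sinusoidal endothelium, store retinoids in the healthy liver and, once activated, become myofibroblasts that secrete most of the collagen of a fibrotic liver. Type I, III and V collagens assemble into the fibrils of scar tissue. Type IV collagen, laminins and nidogen form the sheet-like basement membrane, which in the sinusoid is thin and discontinuous and which endothelial cells also make.

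The promoters of Col4a1, Sparc and Timp1 are shown. At 10 mg/kg these 3 had the lowest unadjusted p of the 34 genes that passed the filter described below. Each is written 5′ to 3′ on the strand of its gene and holds 250 bases before and 50 after the annotated start (RefSeq, GRCr8), and 27 of the 38 genes had such an entry. Col4a1 (chr16:84885347-84885646, plus strand) and Col4a2, which encode the chains of the common type IV collagen trimer, are transcribed away from each other with 76 bases between their first transcribed bases, and capitals mark those bases. In Sparc (chr10:40038767-40039066, minus strand) capitals mark GGAGGA, a purine-rich repeat, and in Timp1 (chrX:3771073-3771372, minus strand) they mark TGAGTAA, an AP-1-like element known from the mouse gene.
Col4a1: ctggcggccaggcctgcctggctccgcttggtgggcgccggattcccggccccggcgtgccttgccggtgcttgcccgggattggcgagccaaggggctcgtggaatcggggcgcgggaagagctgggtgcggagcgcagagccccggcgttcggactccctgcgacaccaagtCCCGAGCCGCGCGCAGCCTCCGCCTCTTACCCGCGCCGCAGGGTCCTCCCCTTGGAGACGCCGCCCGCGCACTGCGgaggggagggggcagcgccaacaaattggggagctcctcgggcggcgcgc
Sparc: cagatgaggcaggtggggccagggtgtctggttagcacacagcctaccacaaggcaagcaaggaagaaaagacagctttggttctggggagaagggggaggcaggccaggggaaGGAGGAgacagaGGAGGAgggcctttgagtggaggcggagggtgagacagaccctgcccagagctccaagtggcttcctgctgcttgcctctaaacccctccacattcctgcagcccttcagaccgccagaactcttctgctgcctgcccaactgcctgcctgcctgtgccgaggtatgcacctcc
Timp1: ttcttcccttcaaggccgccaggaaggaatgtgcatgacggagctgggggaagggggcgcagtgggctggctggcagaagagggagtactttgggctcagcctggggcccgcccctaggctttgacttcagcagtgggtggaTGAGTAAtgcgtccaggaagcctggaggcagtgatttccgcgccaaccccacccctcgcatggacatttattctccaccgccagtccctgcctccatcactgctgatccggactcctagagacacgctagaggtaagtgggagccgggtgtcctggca

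The motifs were chosen after the values were seen and were searched on both strands. GGAGGA was in 13 of the 27 promoters (48.1%) and in 32.7% of all 27457 promoters of the same length, and GGGCGG was in 16 (59.3%) against 34.9%. TGAGTAA was in 1 of the 27 (3.70%), that of Timp1, against 2.75% of all. CCAAT was in 8 (29.6%) against 37.7%, and TATAAA was in 4 (14.8%) against 14.3%. The Col4a1 window was 75% G and C, against a median of 52.3% over all windows. The windows of Col4a1 and Col4a2 share 176 bases and so are not separate examples. A match describes these letters and is not a measured binding site.

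Values are log2 signals as the authors deposited them, and a difference of 1 on this scale is a factor of 2. Levels of different genes are not compared, since each probe set has its own brightness. Array medians ran from 6.08 to 6.12, and any pair of arrays correlated at 0.989 to 0.996. The signal at the 3′ end minus that at the 5′ end of control transcripts grows as RNA degrades. For GAPDH it was 0.39 ± 0.032 in vehicle, 0.34 ± 0.019 at 10 mg/kg and 0.37 ± 0.088 at 30 mg/kg (SD, n = 5). For hexokinase it went the other way at 10 mg/kg, with 1.83 ± 0.052, 1.93 ± 0.065 and 1.80 ± 0.19, and for beta-actin it was 1.74 ± 0.068, 1.73 ± 0.034 and 1.72 ± 0.12. Their part in the results was not tested. A gene was tested if at least 5 of its 15 values exceeded 6.10, the median of the whole table, and 9540 genes did so. Of the 38 genes 34 passed, and Lamb2, Fbln1, Fbln5 and Ctgf did not.

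At 10 mg/kg most of the matrix genes were lower in mean than in vehicle, mostly by small amounts. The mean was lower for 31 of the 38 genes, against 52.5% of all 14217 genes, and the median difference was -0.18, against -0.0064 for all genes. None of the 34 tested genes was called at an adjusted p under 0.05 (limma, Benjamini-Hochberg over 9540 genes), where 0.105% of all genes were called. At an unadjusted p under 0.05 and without the filter, 16 of the 38 genes were lower, against 6.78% of all genes, and 1 was higher, against 4.49% (44.7% in all, against 11.3%). With the filter the counts were 13 lower and 1 higher of 34, against 13.3%. The 38 genes were chosen with earlier results of these data known, and some varied together, so these shares are a description. The 5 samples of each group did not overlap for 2 genes, Col4a1 and Sparc, both lower, against 1.47% of all tested genes. In bulk liver, fewer cells of a type and less RNA per cell cannot be told apart.

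**Figure D1:**
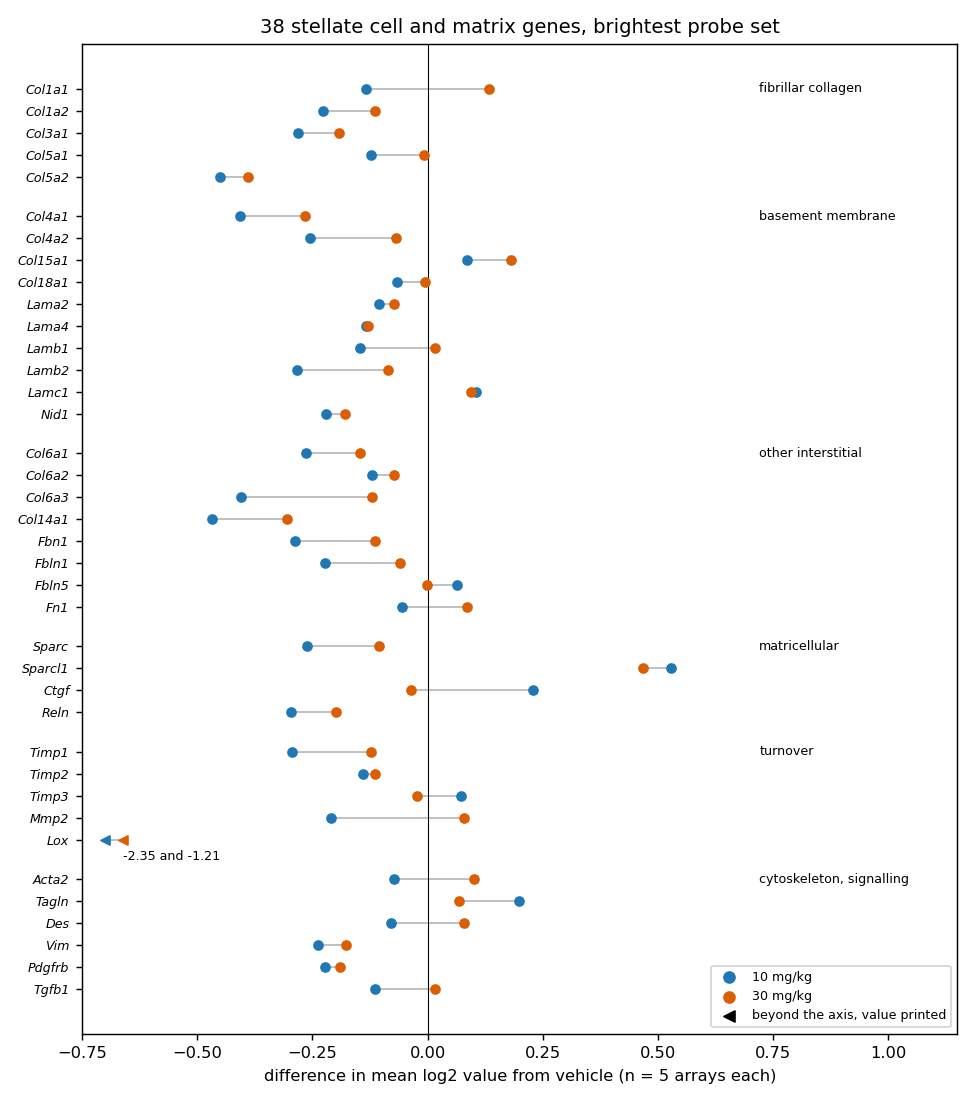
Difference in mean log2 value from vehicle for each of the 38 genes, grouped by role, at 10 mg/kg (blue) and 30 mg/kg (orange), n = 5 arrays a group. Most points lie left of 0, the points at 10 mg/kg mostly further left than those at 30 mg/kg, and Lox lies beyond the axis at -2.35 and -1.21.

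Among the basement membrane genes, Col4a1, the alpha-1 chain of type IV collagen, had the lowest unadjusted p of the 34 tested genes at both doses. Col4a1 read 7.86, 7.91, 7.85, 7.77 and 7.79 in the vehicle samples, 7.70, 7.22, 7.42, 7.53 and 7.28 at 10 mg/kg and 7.59, 7.52, 7.43, 7.62 and 7.70 at 30 mg/kg. Every dosed sample was below every vehicle sample, and the vehicle samples lay within a narrow band. Col4a1 was 1.33-fold lower (95% confidence interval 1.18 to 1.49) at 10 mg/kg, with an unadjusted p of 0.000140 and a limma adjusted p of 0.0740. At the higher dose it was 1.20-fold lower (95% confidence interval 1.07 to 1.35), with an unadjusted p of 0.00472 and a limma adjusted p of 0.170. The second Col4a1 probe set gave differences of -0.42 and -0.31. Whether Col4a1 was called at 10 mg/kg depended on 1 sample: without 10 mg/kg sample 1, the highest of its group, the difference was -0.47 and the limma adjusted p was 0.0257.

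Col4a2, the partner chain of Col4a1, read 7.82, 7.96, 7.96, 8.06 and 7.89 in the vehicle samples, 7.92, 7.58, 7.65, 7.84 and 7.42 at 10 mg/kg and 7.92, 7.84, 7.61, 7.91 and 8.06 at 30 mg/kg. Its groups overlapped at both doses, with 10 mg/kg samples 1 and 4 and all 30 mg/kg samples but sample 3 at vehicle levels. The difference was -0.25 (limma adjusted p = 0.282) at 10 mg/kg and -0.07 (limma adjusted p = 0.758) at 30 mg/kg.

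Lamb1, a laminin beta chain, read 6.86, 6.57, 6.50, 6.51 and 6.22 in the vehicle samples, 6.57, 6.15, 6.35, 6.34 and 6.52 at 10 mg/kg and 6.62, 6.53, 6.26, 6.52 and 6.81 at 30 mg/kg. Vehicle sample 1 was the highest and the groups overlapped, with differences of -0.15 (limma adjusted p = 0.618) at 10 mg/kg and 0.02 (limma adjusted p = 0.962) at 30 mg/kg. Nid1, nidogen, which links laminin to type IV collagen, read 9.03, 8.70, 8.67, 8.56 and 8.71 in the vehicle samples, 8.76, 8.37, 8.66, 8.41 and 8.36 at 10 mg/kg and 8.75, 8.59, 8.33, 8.45 and 8.65 at 30 mg/kg. Vehicle sample 1 was again the highest, and the differences were -0.22 (limma adjusted p = 0.382) and -0.18 (limma adjusted p = 0.417). The second Nid1 probe set gave 0.03 and 0.02, so the probe sets of this gene disagreed in sign.

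Col15a1, a collagen found next to basement membranes, was among the few genes with a higher mean. Col15a1 read 6.02, 6.20, 6.10, 6.37 and 6.25 in the vehicle samples, 6.04, 6.31, 6.39, 6.20 and 6.44 at 10 mg/kg and 6.31, 6.29, 6.40, 6.51 and 6.35 at 30 mg/kg. The groups overlapped at both doses. It was 1.13-fold higher (95% confidence interval 1.01 to 1.28) at 30 mg/kg (limma adjusted p = 0.289) and differed by 0.08 at 10 mg/kg. The other members of this class ranged at 10 mg/kg from -0.28 for Lamb2, which was below the filter, to 0.11 for Lamc1, both laminin chains, with Lama2 at -0.11, Lama4 at -0.13 and Col18a1, the source of endostatin, at -0.07. These 5 lay at 30 mg/kg between -0.13 for Lama4 and 0.09 for Lamc1.

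**Figure D2:**
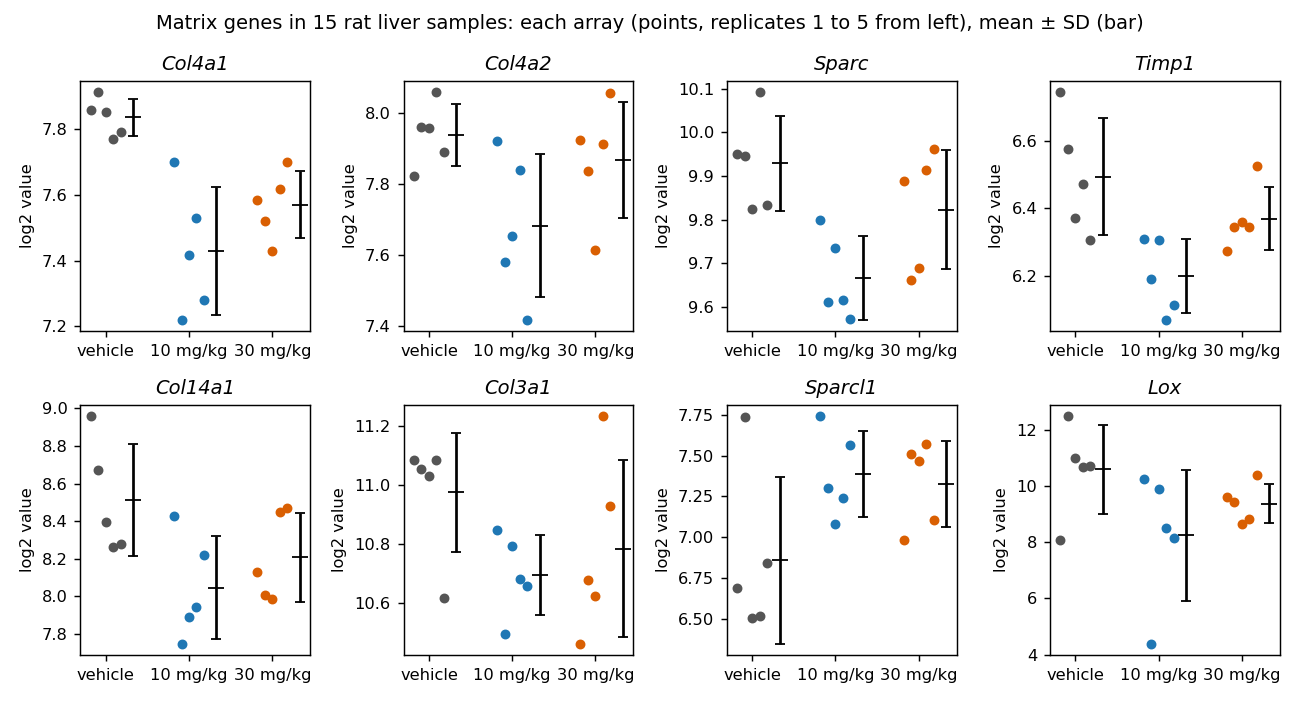
Log2 value of 8 genes in each of the 15 samples, with points for replicates 1 to 5 of each group and the mean ± SD beside them. For Col4a1 all 10 dosed samples lie below the 5 vehicle samples, and for Lox the points of vehicle and 10 mg/kg spread over several units.

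All 5 fibrillar collagen genes were lower in mean at 10 mg/kg, by a median of 0.23, and none was called. Col1a1, the alpha-1 chain of type I collagen, read 5.97, 6.63, 6.31, 6.62 and 5.96 in the vehicle samples, 6.46, 6.06, 6.36, 6.09 and 5.85 at 10 mg/kg and 6.18, 6.25, 6.10, 7.06 and 6.58 at 30 mg/kg. It was spread widely in every group, and the highest value was in 30 mg/kg sample 4. The difference was -0.13 (limma adjusted p = 0.798) at 10 mg/kg and 0.13 (limma adjusted p = 0.767) at 30 mg/kg. Without 30 mg/kg sample 4 the second value was -0.021, so its sign on this probe set rests on that sample. The second Col1a1 probe set, which was below the filter, gave 0.03 at 10 mg/kg and 0.20 at 30 mg/kg.

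Col1a2, the partner chain, read 6.95, 7.93, 7.87, 7.69 and 7.45 in the vehicle samples, 7.64, 7.31, 7.31, 7.07 and 7.43 at 10 mg/kg and 7.26, 7.28, 7.03, 7.90 and 7.85 at 30 mg/kg. Vehicle sample 1 was the lowest of all 15, and the groups overlapped. The difference was -0.23 (limma adjusted p = 0.650) at 10 mg/kg and -0.11 (limma adjusted p = 0.819) at 30 mg/kg, and its second probe set gave -0.06 and 0.01. Col3a1, the chain of type III collagen, read 11.09, 11.06, 11.03, 11.09 and 10.61 in the vehicle samples, 10.85, 10.49, 10.79, 10.68 and 10.66 at 10 mg/kg and 10.46, 10.68, 10.62, 11.23 and 10.93 at 30 mg/kg. In the vehicle group 4 of 5 samples lay close together above every 10 mg/kg sample, and vehicle sample 5 lay below them. Col3a1 differed by -0.28 (limma adjusted p = 0.373) and -0.19 (limma adjusted p = 0.492).

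Col5a1, a type V collagen chain that regulates fibril diameter, read 8.21, 8.14, 8.04, 8.26 and 8.19 in the vehicle samples, 8.18, 8.05, 8.0, 7.98 and 8.01 at 10 mg/kg and 8.14, 8.10, 8.11, 8.23 and 8.23 at 30 mg/kg. The groups overlapped, and the difference was -0.12 (limma adjusted p = 0.340) at 10 mg/kg and -0.01 (limma adjusted p = 0.958) at 30 mg/kg, and its second probe set gave -0.35 and -0.26. Col5a2, the other type V chain, was named after its values were seen. It ranged from 6.96 to 7.96 (median 7.56) in vehicle, from 6.55 to 7.75 (median 6.96) at 10 mg/kg and from 6.84 to 7.33 (median 7.14) at 30 mg/kg, with differences of -0.45 (limma adjusted p = 0.356) and -0.39 (limma adjusted p = 0.355), and its second probe set gave -0.10 and -0.28.

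Basement membrane and fibrillar genes were set side by side as each sample's mean deviation from the vehicle mean, over the 10 and the 5 genes. At 10 mg/kg the basement membrane mean was -0.14 ± 0.096 (SD, n = 5), and it was -0.05 ± 0.057 at 30 mg/kg, against an SD of 0.040 in vehicle. For the fibrillar genes it was -0.24 ± 0.20 and -0.11 ± 0.24, against an SD of 0.18 in vehicle. These SDs are of means over different numbers of genes and are not compared. Among the single fibrillar genes, the SD in vehicle was 0.33 for Col1a1, 0.40 for Col1a2, 0.20 for Col3a1 and 0.36 for Col5a2. Col5a1 varied least of them, with SDs of 0.084, 0.079 and 0.066 in vehicle, at 10 mg/kg and at 30 mg/kg.

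Basement membrane minus fibrillar gave 0.0998 at 10 mg/kg, 0.062 at 30 mg/kg and -0.038 between the doses. Per sample this quantity ran from -0.12 to 0.21 in vehicle, from -0.06 to 0.23 at 10 mg/kg and from -0.30 to 0.23 at 30 mg/kg. The differences were smaller than the SDs of 0.143, 0.115 and 0.226 within the groups. They are a description, and a difference between the classes by dose was not tested.

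**Figure D3:**
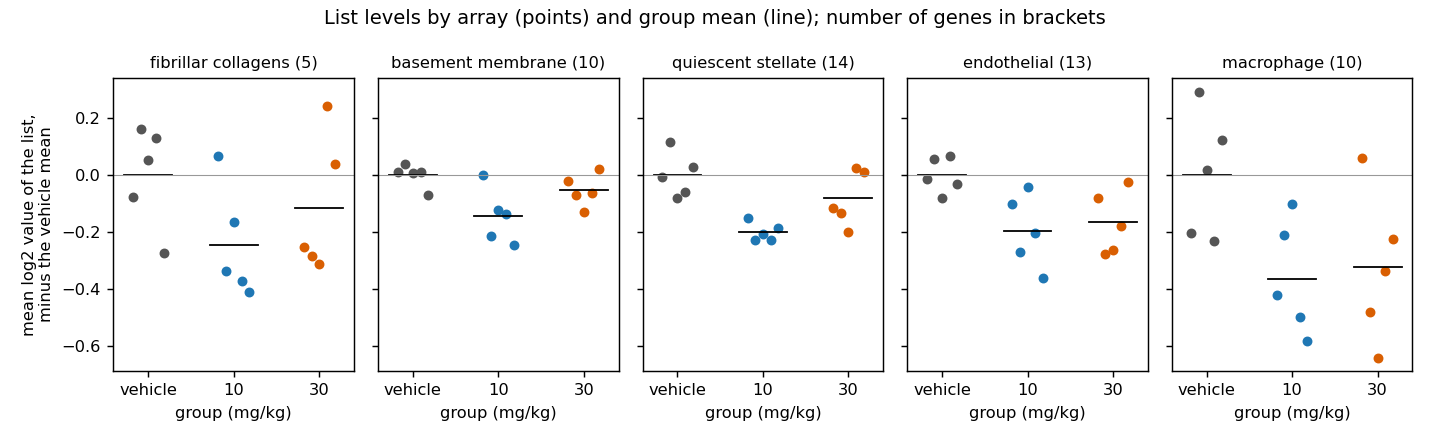
Mean deviation from the vehicle mean (log2) in each of the 15 samples for fibrillar, basement membrane, quiescent stellate, endothelial and macrophage genes. The quiescent stellate points at 10 mg/kg lie together between -0.23 and -0.15, while the fibrillar points of the same samples run from -0.41 to 0.07.

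Of the 8 other interstitial genes, 7 were lower in mean at 10 mg/kg, by a median over the 8 of 0.24. Col14a1, a collagen that binds the surface of fibrils, read 8.96, 8.67, 8.39, 8.26 and 8.28 in the vehicle samples, 8.43, 7.75, 7.89, 7.95 and 8.22 at 10 mg/kg and 8.13, 8.0, 7.98, 8.45 and 8.47 at 30 mg/kg. Vehicle sample 1 was the highest of all samples, and of the 10 mg/kg samples only sample 1 reached into the vehicle range. It was 1.38-fold lower (95% confidence interval 1.10 to 1.74) at 10 mg/kg (limma adjusted p = 0.243) and 1.24-fold lower (95% confidence interval 0.980 to 1.56) at 30 mg/kg (limma adjusted p = 0.351). Its second probe set gave -0.25 and -0.11. Without vehicle sample 1 and 10 mg/kg sample 2 the differences of the brighter probe set were -0.28 and -0.19 in place of -0.47 and -0.31.

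Col6a1, the alpha-1 chain of the microfibrillar type VI collagen, read 8.49, 8.38, 8.42, 8.45 and 8.68 in the vehicle samples, 8.48, 8.11, 8.17, 8.14 and 8.21 at 10 mg/kg and 8.21, 8.25, 8.23, 8.51 and 8.48 at 30 mg/kg. At 10 mg/kg 4 of 5 samples lay below all vehicle samples, and sample 1 lay within their range. The difference was -0.26 (limma adjusted p = 0.228) at 10 mg/kg and -0.15 (limma adjusted p = 0.402) at 30 mg/kg. Col6a2 differed by -0.12 and -0.07, and Col6a3, named after its values were seen, by -0.40 and -0.12, with -0.02 and 0.09 from its second probe set. Fbn1, the microfibril protein fibrillin-1, also named after its values were seen, differed by -0.29 (limma adjusted p = 0.276) at 10 mg/kg and -0.11 (limma adjusted p = 0.614) at 30 mg/kg.

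Fn1, fibronectin, which hepatocytes also secrete into plasma, read 13.73, 13.60, 13.67, 13.64 and 13.58 in the vehicle samples, 13.54, 13.55, 13.65, 13.65 and 13.56 at 10 mg/kg and 13.71, 13.70, 13.76, 13.80 and 13.69 at 30 mg/kg. Vehicle samples covered both dosed groups in part, whereas every 30 mg/kg sample was above every 10 mg/kg sample. The difference from vehicle was -0.05 (limma adjusted p = 0.616) at 10 mg/kg and 0.09 (limma adjusted p = 0.338) at 30 mg/kg. The fibulins, which bind elastic fibres and basement membranes, were below the filter, with Fbln1 at -0.22 and -0.06 and Fbln5 at 0.06 and -0.0011.

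The matricellular genes went both ways. Sparc, a collagen-binding glycoprotein of basement membranes and of activated stellate cells, read 9.95, 9.95, 9.82, 10.09 and 9.83 in the vehicle samples, 9.80, 9.61, 9.74, 9.62 and 9.57 at 10 mg/kg and 9.89, 9.66, 9.69, 9.91 and 9.96 at 30 mg/kg. Every 10 mg/kg sample was below every vehicle sample, and at 30 mg/kg samples 1, 4 and 5 were within the vehicle range. Sparc was 1.20-fold lower (95% confidence interval 1.08 to 1.33) at 10 mg/kg (limma adjusted p = 0.164), and at 30 mg/kg it differed by -0.11 (limma adjusted p = 0.490). Its second probe set gave -0.30 and -0.07.

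Sparcl1, a relative of Sparc, had a higher mean at both doses. Sparcl1 read 6.69, 7.74, 6.50, 6.52 and 6.84 in the vehicle samples, 7.74, 7.30, 7.08, 7.24 and 7.57 at 10 mg/kg and 6.98, 7.51, 7.47, 7.57 and 7.10 at 30 mg/kg. Vehicle sample 2 was as high as the highest dosed sample, while the other 4 vehicle samples lay below every dosed sample. It was 1.44-fold higher (95% confidence interval 1.06 to 1.97) at 10 mg/kg (limma adjusted p = 0.314) and 1.38-fold higher (95% confidence interval 1.01 to 1.89) at 30 mg/kg (limma adjusted p = 0.292). Reln, reelin, which stellate cells of the liver express, was named after its values were seen and ranged from 9.15 to 9.42 (median 9.22) in vehicle, from 8.77 to 9.29 (median 8.95) at 10 mg/kg and from 8.90 to 9.33 (median 8.93) at 30 mg/kg, with differences of -0.30 (limma adjusted p = 0.263) and -0.20 (limma adjusted p = 0.357). Ctgf, a matricellular growth factor partner below the filter, differed by 0.23 and -0.04.

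Timp1, an inhibitor of matrix metalloproteinases, led the turnover genes by p. Timp1 read 6.74, 6.57, 6.37, 6.47 and 6.31 in the vehicle samples, 6.31, 6.19, 6.31, 6.07 and 6.12 at 10 mg/kg and 6.28, 6.34, 6.36, 6.34 and 6.52 at 30 mg/kg. The groups met at one value, where the lowest vehicle sample read about the same as the highest samples at 10 mg/kg. Timp1 was 1.23-fold lower (95% confidence interval 1.09 to 1.38) at 10 mg/kg (limma adjusted p = 0.159), and at 30 mg/kg the difference was -0.12 (limma adjusted p = 0.462). The other inhibitors Timp2 and Timp3 differed by -0.14 and 0.07 at 10 mg/kg and by -0.11 and -0.02 at 30 mg/kg, and the second Timp3 probe set gave -0.16 and -0.43. Mmp2, gelatinase A, read 6.85, 6.96, 6.75, 6.91 and 7.10 in the vehicle samples, 6.70, 6.50, 6.77, 6.99 and 6.55 at 10 mg/kg and 6.80, 7.00, 6.79, 7.23 and 7.15 at 30 mg/kg. The 10 mg/kg samples were mostly low, and the differences from vehicle were -0.21 (limma adjusted p = 0.406) and 0.08 (limma adjusted p = 0.747).

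Lox, lysyl oxidase, which starts the cross-linking of collagen and elastin, had by far the widest values of the 38 genes and was chosen for description after its values were seen. Lox read 8.09, 12.48, 10.99, 10.68 and 10.69 in the vehicle samples, 10.26, 4.40, 9.89, 8.52 and 8.15 at 10 mg/kg and 9.61, 9.43, 8.64, 8.82 and 10.37 at 30 mg/kg. Vehicle sample 1 was the lowest of its group and 10 mg/kg sample 2 the lowest of all 15, and the groups overlapped. The means were 10.59 ± 1.58 in vehicle, 8.24 ± 2.33 at 10 mg/kg and 9.37 ± 0.691 at 30 mg/kg (SD, n = 5). Lox was 5.08-fold lower (95% confidence interval 1.25 to 20.7) at 10 mg/kg, with an unadjusted p of 0.0263 and a limma adjusted p of 0.316.

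The difference of -2.35 ranked 1 from the lowest among 14217 genes, and that at 30 mg/kg, -1.21 (limma adjusted p = 0.549), ranked 11. The SD of Lox ranked 17 from the largest in vehicle and 3 at 10 mg/kg among the same genes. A second Lox probe set read 7.01, 11.42, 9.98, 9.54 and 9.72 in the vehicle samples, 9.36, 4.13, 8.71, 7.38 and 7.23 at 10 mg/kg and 8.69, 8.49, 7.59, 7.86 and 9.28 at 30 mg/kg. It placed the same samples high and low and gave differences of -2.17 and -1.15. Leaving out 1 sample moved the 10 mg/kg value between -2.97, when it was vehicle sample 1, and -1.38, when it was sample 2 at 10 mg/kg, and the 30 mg/kg value between -1.84 and -0.74, when it was vehicle sample 1 or 2 respectively. Without both vehicle sample 1 and 10 mg/kg sample 2 the values were -2.01 and -1.84, with limma adjusted p of 0.208 and 0.161.

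**Figure D4:**
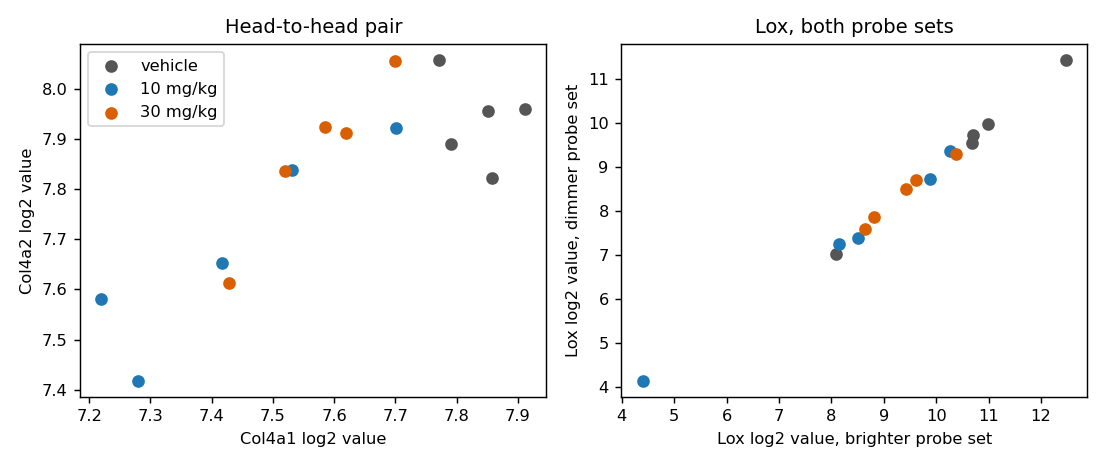
Log2 values of Col4a1 against Col4a2 (left) and of the 2 Lox probe sets against each other (right), 1 point per sample, coloured by group. The Lox probe sets are high and low in the same samples, from 4.40 to 12.48 on the brighter one.

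The 6 cytoskeleton and signalling genes had a median difference of -0.096 at 10 mg/kg and 0.04 at 30 mg/kg. Acta2, the smooth muscle actin that marks activated stellate cells and is also made by vessel walls, read 6.90, 6.77, 6.72, 6.96 and 6.74 in the vehicle samples, 6.63, 6.65, 6.91, 6.88 and 6.67 at 10 mg/kg and 6.94, 6.93, 6.73, 6.97 and 7.03 at 30 mg/kg. The groups overlapped, and the differences were -0.07 (limma adjusted p = 0.71) and 0.10 (limma adjusted p = 0.527). Des, desmin, a filament of rat stellate cells, read 6.26, 6.20, 6.35, 5.99 and 6.06 in the vehicle samples, 5.97, 6.05, 6.29, 6.08 and 6.09 at 10 mg/kg and 6.04, 6.26, 6.13, 6.56 and 6.26 at 30 mg/kg. Its highest value was in 30 mg/kg sample 4, and the differences were -0.08 (limma adjusted p = 0.756) and 0.08 (limma adjusted p = 0.714).

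Tgfb1, the cytokine that drives collagen synthesis in stellate cells, read 6.45, 6.97, 6.46, 6.53 and 6.53 in the vehicle samples, 6.55, 6.36, 6.46, 6.47 and 6.53 at 10 mg/kg and 6.92, 6.51, 6.51, 6.52 and 6.57 at 30 mg/kg. Vehicle sample 2 and 30 mg/kg sample 1 stood above otherwise level values, and the differences were -0.11 (limma adjusted p = 0.651) and 0.02 (limma adjusted p = 0.950). Vim, vimentin, an intermediate filament of mesenchymal cells named after its values were seen, differed by -0.24 (limma adjusted p = 0.336) and -0.18 (limma adjusted p = 0.405). Pdgfrb, a receptor for platelet-derived growth factor, differed by -0.22 and -0.19, and Tagln, an actin-binding protein of contractile cells, by 0.20 and 0.07. The second Pdgfrb probe set gave -0.01 and 0.09.

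At 30 mg/kg the matrix genes differed less from vehicle in median, and both comparisons share the vehicle samples. The mean was lower for 27 of the 38 genes, against 50.2% of all genes, with a median of -0.07 against -0.0007. None was called by limma, where 0% of all tested genes were called. At an unadjusted p under 0.05 and without the filter, 1 gene, Col4a1, was lower, against 7.88% of all genes, and 2 genes, Col15a1 and Sparcl1, were higher, against 8.12% (7.89% in all, against 16%). The same 3 of 34 genes were past this p with the filter, against 16.1%. Col4a1 alone lay wholly below vehicle, against 2.36% of all tested genes. By class the median was -0.11 for fibrillar, -0.07 for basement membrane, -0.09 for other interstitial, -0.07 for matricellular and -0.11 for turnover genes, and it was 0.04 for the cytoskeleton and signalling genes, of which 4 of 6 were higher in mean.

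The doses were also compared with each other, and this comparison shares the 10 mg/kg samples with that of 10 mg/kg against vehicle. The mean was higher at 30 than at 10 mg/kg for 32 of the 38 genes, with a median of 0.11 against 0.008 for all genes, and it was lower for 6, against 46.3% of all genes. None was called by limma, where 0% of all tested genes were called, and without the filter 6 genes were higher, against 3.88%, and 0 lower, against 2.45%, at an unadjusted p under 0.05 (15.8% in all, against 6.33%). With the filter 6 of 34 were past this p, against 5.82%. This count ran from 2, as without 10 mg/kg sample 2, to 8, without 10 mg/kg sample 1, when 1 sample was left out. It was 2 with arrays centred on their medians. Fn1 was the gene whose 30 mg/kg samples were all above those at 10 mg/kg, against 0.44% of all tested genes. Fn1 was 1.10-fold higher (95% confidence interval 1.03 to 1.18), Mmp2 1.22-fold higher (95% confidence interval 1.05 to 1.43) and Acta2 1.13-fold higher (95% confidence interval 1.01 to 1.26), each with a limma adjusted p of 0.851. Col5a1, Sparc and Timp1 differed by 0.11, 0.16 and 0.17, with the same adjusted p. Lox differed by 1.13, the highest of 14217 genes, and by 0.17 without vehicle sample 1 and 10 mg/kg sample 2.

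Samples within a group differed in how many genes lay below the vehicle mean. At 10 mg/kg the counts were 21, 32, 27, 30 and 35 of 38 in samples 1 to 5, and sample 1 held the highest value of its group for 26 genes. In the 30 mg/kg group they were 26, 28, 32, 25 and 14, and sample 3 held the lowest value of its group for 18 genes while samples 4 and 5 held the highest for 14 and 16. In vehicle the counts were 18, 10, 22, 18 and 26. The median SD of a gene was 0.17 in vehicle, 0.16 at 10 mg/kg and 0.18 at 30 mg/kg.

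**Figure D5:**
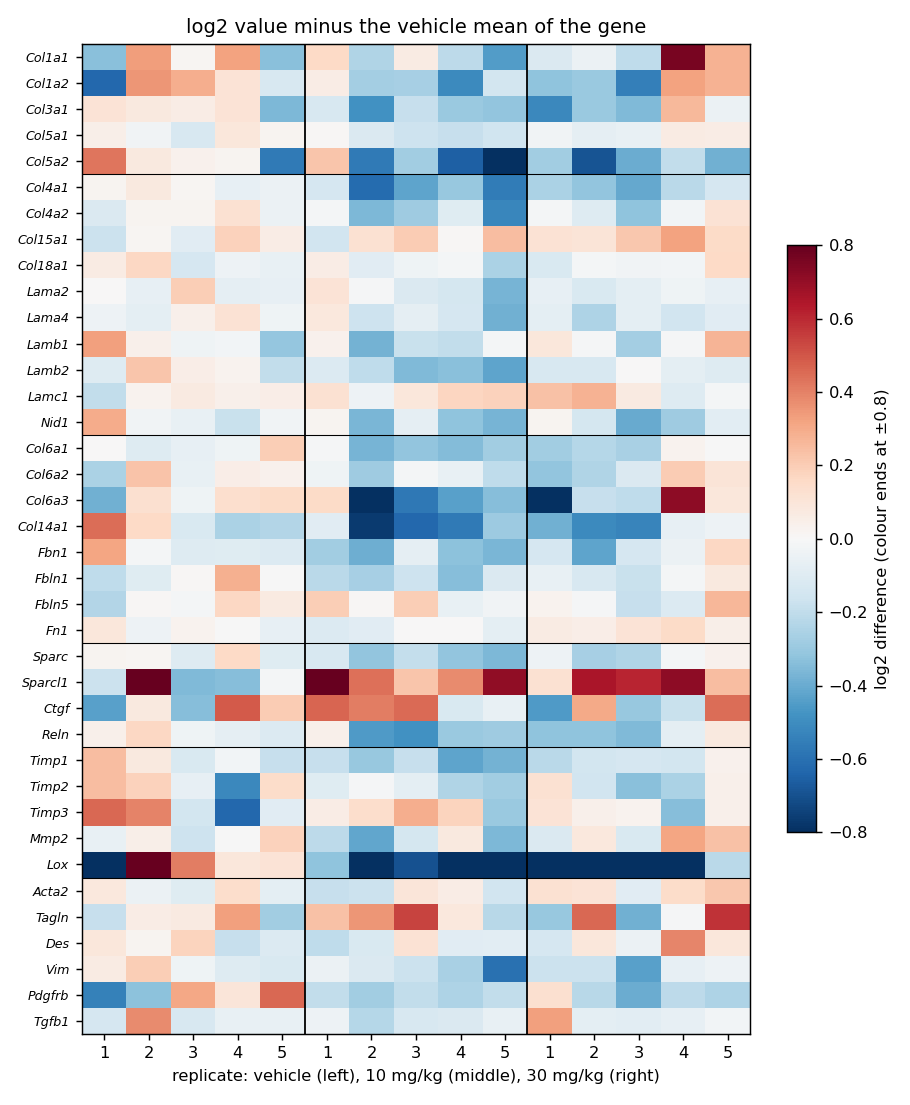
Deviation of each of the 38 genes (grouped by role) from its vehicle mean, in log2, in each of the 15 samples. Sample 1 at 10 mg/kg and sample 5 at 30 mg/kg show fewer low genes, 21 and 14, than the other samples of their groups.

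Some genes varied together within groups. Over the residuals of the 15 samples from their group means, Pearson's r was 0.83 for Lamb1 with Col14a1 and for Col14a1 with Reln, 0.81 for Col4a1 with Col4a2, 0.79 for Col1a1 with Col3a1 and 0.77 for Col1a1 with Col1a2. The lowest r of any pair of tested genes was -0.75, for Timp1 with Pdgfrb. Each gene was read by its brightest probe set, and r was not computed for the second Pdgfrb probe set. These genes were read on the same arrays, so the values are a description. Outside the 38, the genes most like Col4a1 by this measure were Parp6 (r = 0.89), Ralb (0.86), Eva1b (0.85), Marcks (0.85) and Serpine2 (0.84). For Lox, looked up after its values were seen, they were Galnt1 (0.91), C18h18orf21 (0.87), Atg9a (0.87), Prickle1 (0.86) and C2cd2 (0.86).

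Other genes that make, bind or signal to the matrix were read as lists, and none of their genes was called by limma. Of all 14217 genes, 52.5% were lower in mean at 10 mg/kg, and without the filter 6.78% were lower and 4.49% higher at an unadjusted p under 0.05 (11.3% in all). Of 15 collagen processing genes 10 were lower in mean, and 2 were lower and 1 higher at that p (20% in all). Serpinh1, the collagen chaperone, differed by -0.30 (limma adjusted p = 0.263), and Loxl2, a lysyl oxidase relative, by -0.30 (0.293) at 10 mg/kg and -0.38 (0.170) at 30 mg/kg. P4ha2, a collagen prolyl hydroxylase subunit, differed by -0.27 (0.169) at 30 mg/kg. Of 15 matrix receptor genes 8 were lower in mean (53.3%) and 2 were past that p (13.3%), shares near those of all genes. The 2 were Itgb3, an integrin chain, at -0.38 (limma adjusted p = 0.131), and Cd47, a thrombospondin receptor, at -0.26 (0.159), and at 30 mg/kg they differed by -0.26 (0.213) and -0.28 (0.133).

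Of 17 genes of the TGF-beta pathway 14 were lower in mean at 10 mg/kg (82.4%, against 52.5% of all genes), and 2 were past that p (11.8%, near the 11.3% of all genes). Bambi, a decoy receptor, differed by -0.69 at 10 mg/kg and -0.70 at 30 mg/kg (limma adjusted p = 0.122 and 0.127), and at 10 mg/kg all its samples lay below vehicle. Tgfbi, a secreted matrix protein induced by TGF-beta, differed by -0.20 and -0.18 (0.164 and 0.174), and all samples lay below vehicle at both doses. Of 10 further basement membrane genes 4 were lower in mean, with 1 higher and 0 lower at that p. Col4a5, another type IV chain, differed by 0.29 at 10 mg/kg (limma adjusted p = 0.382), Lama3, a laminin chain, by -0.36 and -0.46 (0.390 and 0.224), and Agrn, agrin, by -0.18 at 30 mg/kg (0.284).

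Markers of liver cell types, stellate cells among them, were also read as lists, and the direction differed between lists. Quiescent stellate markers were lower in mean for 14 of 14 genes at 10 mg/kg, with a median of -0.18 and 7 lower at an unadjusted p under 0.05 without the filter, against 6.78% of all genes. Their mean level per sample, relative to the vehicle mean, lay between -0.23 and -0.15 against -0.08 to 0.12 in vehicle. Rgs5, a pericyte and stellate marker, differed by -0.54 (limma adjusted p = 0.196) and Colec11, a lectin, by -0.26 (0.261). At 30 mg/kg 9 of 14 were lower in mean, 0 of 14 were past that p, against 16% of all genes, and the level ran from -0.20 to 0.03, with Pparg, a nuclear receptor of quiescent stellate cells and fat cells, at -0.34 (0.337) and Colec11 at -0.18 (0.337).

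Endothelial markers were lower in mean for 13 of 13 genes at 10 mg/kg and 11 at 30 mg/kg, 5 and 4 of them at an unadjusted p under 0.05 without the filter, against 6.78% and 7.88% of all genes, and the level ran from -0.36 to -0.04 and from -0.28 to -0.02, against -0.08 to 0.07 in vehicle. Pecam1, an endothelial adhesion molecule, differed by -0.30 at both doses (limma adjusted p = 0.159 and 0.156), and Emcn, endomucin, by -0.24 and -0.26 (0.196 and 0.156). Macrophage markers were lower in mean for 9 of 10 genes at both doses, 6 and 1 of them at that p, and the level ran from -0.58 to -0.10 and from -0.64 to 0.06, against -0.23 to 0.29. Cd68 differed by -0.52 at 10 mg/kg (0.323) and Cd163, a scavenger receptor, by -0.31 and -0.30. Clec4f, a Kupffer cell lectin, differed by -0.46 at 30 mg/kg (0.326).

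Hepatocyte markers had a median of 0.011 at 10 mg/kg and -0.006 at 30 mg/kg, and the level ran from -0.11 to -0.004 and from -0.14 to 0.02, against -0.07 to 0.07 in vehicle. Of the 12 genes, 2 were lower and 1 higher at 10 mg/kg at an unadjusted p under 0.05 without the filter (25%, against 11.3% of all genes). At 30 mg/kg 1 was lower and 1 higher (16.7%, against 16%). Glul, glutamine synthetase, differed by -0.62 at 10 mg/kg (limma adjusted p = 0.223), where all its samples lay below vehicle, against 1.47% of all tested genes. Cyp2e1 differed by -0.28 and -0.24 (0.266 and 0.253), and Cps1, a urea cycle enzyme, by 0.11 at 30 mg/kg (0.251). Markers of blood cells were lower in mean for 4 of 4 genes at 10 mg/kg, with a median of -0.26, Alas2 at -0.76 (0.318) and Hbb at -0.41 (0.457). At 30 mg/kg 2 were lower and 2 higher, with a median of -0.09.

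Portal fibroblast and mesothelial markers were higher in mean for 5 of 8 genes at 10 mg/kg and 6 at 30 mg/kg, with medians of 0.11 and 0.13, and with Gas6 at -0.53 (limma adjusted p = 0.358) and Gpm6a at 1.25 (0.610), and Fbln2 at 0.20 at 30 mg/kg (0.297). Lymphocyte and neutrophil markers had medians of -0.07 and -0.03 over 10 genes, with Ptprc at -0.40 (0.429) and S100a9 at -0.33. Bile duct markers were higher in mean for 6 of 7 genes at 10 mg/kg and 7 of 7 at 30 mg/kg. The median was 0.07 at both doses. Without the filter 2 of the 7 were higher at an unadjusted p under 0.05 at each dose, against 4.49% and 8.12% of all genes. At that p 0 were lower (28.6% in all, against 11.3% and 16% of all genes in either direction). The 2 that passed the filter, Epcam and Aqp1, differed at 10 mg/kg by 0.04 and -0.04. The part of any of these cell types in the matrix values was not tested.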

How the data were processed

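Liver RNA of 15 samples was read on an Affymetrix rat array. The authors deposited log2 values per probe set, already normalised. Per the submitters' processing notes the tools were limma 2.14.7, GCRMA 2.12.1 and RMA, with the summarising one of the last 2 not stated there. Normalisation to a common distribution hides a shift common to nearly all genes. Of 31099 probe sets, 57 were controls, 20826 carried 1 gene symbol, 436 several and 9780 none. A current entry (GRCr8) was found for 20758. Probe sets with at least 5 of 15 values over the median of the table, 6.10, were kept (15929), and the brightest one stood for each of 9540 genes. No arrays held identical values (0 of 105 pairs). Group means were fitted to all 15 arrays with limma 3.58.1 in R 4.3.3, with Benjamini-Hochberg adjustment over the 9540 genes and a threshold of 0.05. Fold changes are powers of 2 of the log2 differences. The number of arrays limits the precision.

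The members and lists were chosen with earlier results of these data known. Values per sample are given for Col4a1, Sparc, Col4a2, Col1a1, Col1a2, Col3a1, Lamb1, Nid1, Acta2, Des, Timp1 and Tgfb1. They are also given, in each comparison, for the 5 tested members with the lowest unadjusted p. Of other lists, the 2 genes past the filter with the lowest unadjusted p are named. Counts without the filter cover all listed genes on the array, so they can include genes that are not named. The fit was tested on simulated data. Alternatives covered the filter, the probe set rule, scaling, eBayes options, the samples fitted, a replicate block and leaving out each sample.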

Additional observations from a re-analysis of the deposited data

Results flagged for a closer look

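Of 114 groups of 5 values, 38 genes in 3 groups, 9 held 1 sample whose gap to the next was more than 0.71 of the group's range (Dixon's criterion). Chance marks about 1 in 20 groups. In vehicle, Col3a1 was low in sample 5, at 10.61 against 11.03 to 11.09 in the other samples, and Lamc1 was low in sample 1, at 7.61 against 7.84 to 7.88. Lama2 was high in vehicle sample 3, at 6.73 against 6.46 to 6.54, and Fbn1 was high in sample 1, at 7.08 against 6.66 to 6.75. Vehicle sample 2 was high for Sparcl1, at 7.74 against 6.50 to 6.84, and for Tgfb1, at 6.97 against 6.45 to 6.53. At 10 mg/kg, Col6a1 was high in sample 1, at 8.48 against 8.11 to 8.21. At 30 mg/kg, Timp3 was low in sample 4, at 7.18 against 7.55 to 7.63, and Tgfb1 was high in sample 1, at 6.92 against 6.51 to 6.57.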

How the results depend on the processing

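The count of genes called at 10 mg/kg, 10, was 3 with no filter, 0 with a replicate block, 1 without vehicle sample 1 and 10 mg/kg sample 2 (chosen after seeing the data) and between 0 and 26 when 1 of the 15 samples was left out. That at 30 mg/kg, 0, was 1 under the same added setting and between 0 and 5 with 1 sample left out. Of the 38 genes, between 0 and 1 were called at 10 mg/kg with 1 sample left out. This was Col4a1 without 10 mg/kg sample 1 (limma adjusted p = 0.0257), and over all 24 alternatives its adjusted p ran from 0.0257 to 0.192. At 30 mg/kg the sign of Tgfb1 reversed under the added setting, to -0.016, and with 1 sample left out its value ran from -0.061 to 0.11, that of Lamb1 from -0.062 to 0.098 and that of Col1a1 from -0.021 to 0.22. The cause was not tested. Of 1022 values of named members under alternatives, 1013 kept their direction and side of the threshold. No member was called in the main fit and the alternatives reuse the same samples, so this count is a description. Basement membrane minus fibrillar stayed between 0.066 and 0.151 at 10 mg/kg with 1 sample left out. That range does not cover 30 mg/kg or the comparison between the doses. At 30 mg/kg sample 4 was at -0.30 and sample 5 at -0.02, while samples 1 to 3 were between 0.18 and 0.23. With the stricter filter 27 of the 38 genes were tested in place of 34. Those that passed the main filter but not this one were Col1a1, Col15a1, Lama4, Timp1, Lox, Tagln and Des. Same-numbered samples correlated between -0.071 and 0.195 in their residuals, over 0.1 in 3 of 15 pairs and best with their own number in 5 of 15, so the numbers were not taken as pairs; with the replicate block 0 members were called and Col4a1 at 10 mg/kg had a limma adjusted p of 0.133.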
